A study of Homo sapiens with 4 samples.

Results

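The YPEL family was followed in K562 cells, a human erythroleukemia cell line, after 4 h of treatment with AC-1041, a morpholine-substituted thalidomide analog of the trifluorophthalimide type. The members are the 5 genes YPEL1 to YPEL5, each taken as the gene probe that carries its name in the array files. All 5 had 1 probe, out of 14297 gene probes on the array. Each of 4 Agilent arrays read treated against control RNA in 2 colours, with the treated sample in Cy5 on arrays 1 and 2 and in Cy3 on arrays 3 and 4. The labels call the control cells untreated, whereas the methods of the study name a DMSO control, and the labels give no dose. Both RNAs of every array came from the same cell line. The methods state that treated and control samples were collected in quadruplicate, but nothing in the labels ties the arrays to separate cultures. The p-values therefore measure only the spread between these arrays, which may be technical. The family was chosen on the ratios of these same arrays, hence its ratios are given as a description, with no test.

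YPEL genes code for small zinc-binding proteins of the Yippee type, which are conserved from fungi to man. YPEL1 to YPEL4 are almost identical to each other in protein sequence, while YPEL5 is more distant and is a subunit of the CTLH complex, a multi-subunit E3 ubiquitin ligase. The fold of the Yippee proteins resembles that of the thalidomide-binding domain of cereblon, the substrate receptor through which thalidomide acts on its ligase. YPEL3 is known for causing growth arrest and senescence when it is forced on, and YPEL1 for giving fibroblasts an epithelial-like shape.

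Because the coding sequences of the family are so alike, the probe sequences decide what each spot measures. Of the 60 bases of each probe, the first 30 are shown, in the 5′ to 3′ direction as deposited and with no base in capitals. They are given to show that the probes differ from each other in sequence. Whether a probe also binds the transcript of another member was not tested.
YPEL1: ggagtaatgtgcgaactttcccttctcctt
YPEL2: aaggtaaagcctagaagaaactatgaaagc
YPEL3: gagcagccagaagtacaaagaggggaagta
YPEL4: agcgcctcttgctcacggggctccactcgg
YPEL5: aaagtgacttctgagtacagttaagttcct
In the coordinates of the files (hg18) the probes lie at chr22:20385365-20385424 on the minus strand for YPEL1, at chr17:54833489-54833548 on the plus strand for YPEL2, at chr16:30011548-30011607 on the minus strand for YPEL3, at chr11:57170366-57170425 on the minus strand for YPEL4 and at chr2:30236632-30236691 on the plus strand for YPEL5. The placement of a probe in an exon or an untranslated region was not analysed here. Over the full 60 bases, the longest run shared by any pair of the probes was between 4 and 8 bases (10 pairs compared). The GC content was 36.7% for the YPEL2 probe, 41.7% for YPEL1, 43.3% for YPEL3 and for YPEL5 and 55.0% for YPEL4. The RefSeq gene table of GRCh38.p14 lists 4 pseudogenes of YPEL5 (YPEL5P1 to YPEL5P4), and whether their transcripts bind the YPEL5 probe was not tested.

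The arrays of different dye orientation were unlike each other over all genes. Log2 ratios of treated to control cells were correlated at r = 0.81 for the Cy5 pair of arrays and r = 0.94 for the Cy3 pair, over the 8852 probes that could be fitted. Pairs that mixed the orientations gave r from -0.28 to -0.11. The 77 negative control spots had an SD between 226 and 308 signal units on arrays 1 and 2, and between 27.8 and 40.5 on arrays 3 and 4, so that dye orientation and background cannot be told apart. Of the erythroid markers of K562 (GATA1, KLF1, TAL1, HBG1, HBZ, EPOR and TFRC), control cells gave a signal well above background for 6 of 7 on every array, and for 7 of 7 on at least 3 arrays. Of 3 T cell markers 0 were so on all arrays, and 1 (CD3D) was on at least 3 arrays. However, 1 of 2 B cell markers (CD79A) and 2 of 3 epithelial markers (EPCAM and KRT19) were so on all arrays.

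YPEL2 and YPEL5 had a log2 ratio above 0 on each of the 4 arrays, whereas YPEL1, YPEL3 and YPEL4 had ratios of both signs. A ratio above 0 on all 4 arrays was found for 1299 of the 7991 fitted probes with 4 unmarked spots (16.3%), and one below 0 for 766 (9.59%), against 2 and 0 of the 5 YPEL genes. Since the family was chosen on these ratios, nothing is read from these counts. All 5 members passed the filter on dim probes, which asks for 1 channel well above background on at least 2 arrays. Well above background is the mark that the scanner software gives to a spot clearly over its local background. YPEL3 and YPEL5 had this mark for treated and control RNA on every array, and the other 3 members did not.

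**Figure D1:**
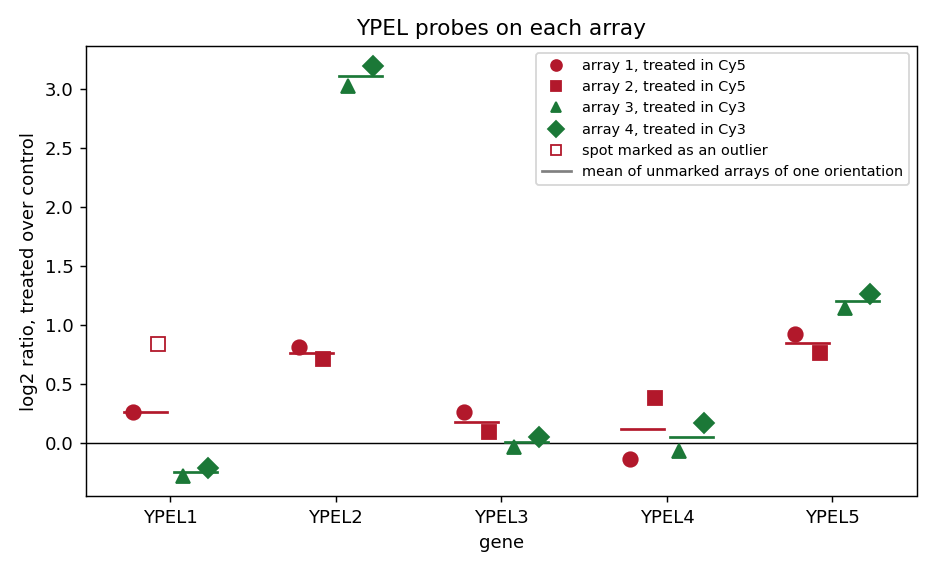
Log2 ratio of treated to control K562 cells (vertical axis) for the 5 YPEL probes (horizontal axis), 1 point for each array, with the mean of the unmarked arrays of one dye orientation as a line. YPEL2 and YPEL5 lie above 0 on all 4 arrays, YPEL2 at 0.71 and 0.81 in the Cy5 orientation and at 3.03 and 3.20 in the Cy3 orientation, and the other members lie between -0.28 and 0.38 apart from the marked spot of YPEL1 at 0.84.

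YPEL5, the CTLH subunit of the family, gave a similar ratio in both dye orientations. The log2 ratio, treated over control, was 0.93 and 0.76 in the Cy5 orientation (arrays 1 and 2), and 1.15 and 1.26 in the Cy3 orientation (arrays 3 and 4). YPEL5 was thus higher in treated cells on every array, and the arrays of the Cy3 orientation lay somewhat higher than those of the Cy5 orientation. The mean of the orientations was a log2 ratio of 1.02 ± 0.22 (SD, n = 4 arrays), or 2.03-fold. It was 1.80-fold in the Cy5 orientation and 2.30-fold in the Cy3 orientation. These orientation means differed by 0.36 on the log2 scale, more than the arrays within either orientation, which were 0.16 and 0.11 apart. Ranked from the highest log2 ratio, YPEL5 was number 119 of the 8852 fitted probes by the mean of the orientations, 232 in the Cy5 orientation and 401 in the Cy3 orientation.

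The spot signals behind the YPEL5 ratio were far from background. Before correction, the mean signal of the spot for treated and for control cells was 6419 and 3223 on array 1, then 10127 and 3853 on array 2. Arrays 3 and 4 gave 9171 against 3856 and 9263 against 4013. These signals were not corrected for background or dye. As the family was chosen on its ratios, nothing is read from the gap between them. Even on arrays 1 and 2, where the negative spots spread most, the control signal lay at least 12.3 SD above their mean. Feature Extraction, the scanner software, gave log2 ratios of its own, with an error from its model of the spot, of 0.73 ± 0.22, 0.70 ± 0.22, 1.25 ± 0.23 and 1.26 ± 0.23 on arrays 1 to 4.

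YPEL2, one of the near-identical members, gave ratios that differed widely with the dye. The log2 ratio, treated over control, was 0.81 and 0.71 in the Cy5 orientation (arrays 1 and 2), and 3.03 and 3.20 in the Cy3 orientation (arrays 3 and 4). The ratios of arrays 3 and 4 were much the higher. The mean of the orientations was 1.94 ± 1.36 (SD, n = 4 arrays) on the log2 scale, with a mean of 0.76 in the Cy5 orientation and of 3.11 in the Cy3 orientation. The difference of 2.35 between the orientations was many times that of 0.10 and 0.16 between arrays within them. Of all fitted probes, 98.7% had a lower difference of Cy3 minus Cy5 orientation.

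In control cells YPEL2 was close to background on every array. The mean signal of its spot for treated and for control cells was 606 and 390 on array 1 and 653 and 352 on array 2, and none of these 4 signals was well above background. Array 3 gave 1339 against 181, and array 4 gave 1642 against 202. In the treated channel the gene was well above background on 2 of 4 arrays (3 and 4), and in the control channel on 1 of 4 (array 4). With the control so close to background, no fold and no rank by ratio are given for YPEL2. Set against the negative spots of the same channel, the treated signal lay 1.27 and 0.94 SD above their mean on arrays 1 and 2, but 34.5 and 54.3 SD above it on arrays 3 and 4. The control signal lay between 0.039 and 1.98 SD above it on the 4 arrays. The software's own log2 ratios carried errors to match, at 2.16 ± 0.86 and 0.91 ± 1.30 in the Cy5 orientation and 3.96 ± 0.44 and 3.78 ± 0.41 in the Cy3 orientation. On array 2 this error was larger than the ratio itself.

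**Figure D2:**
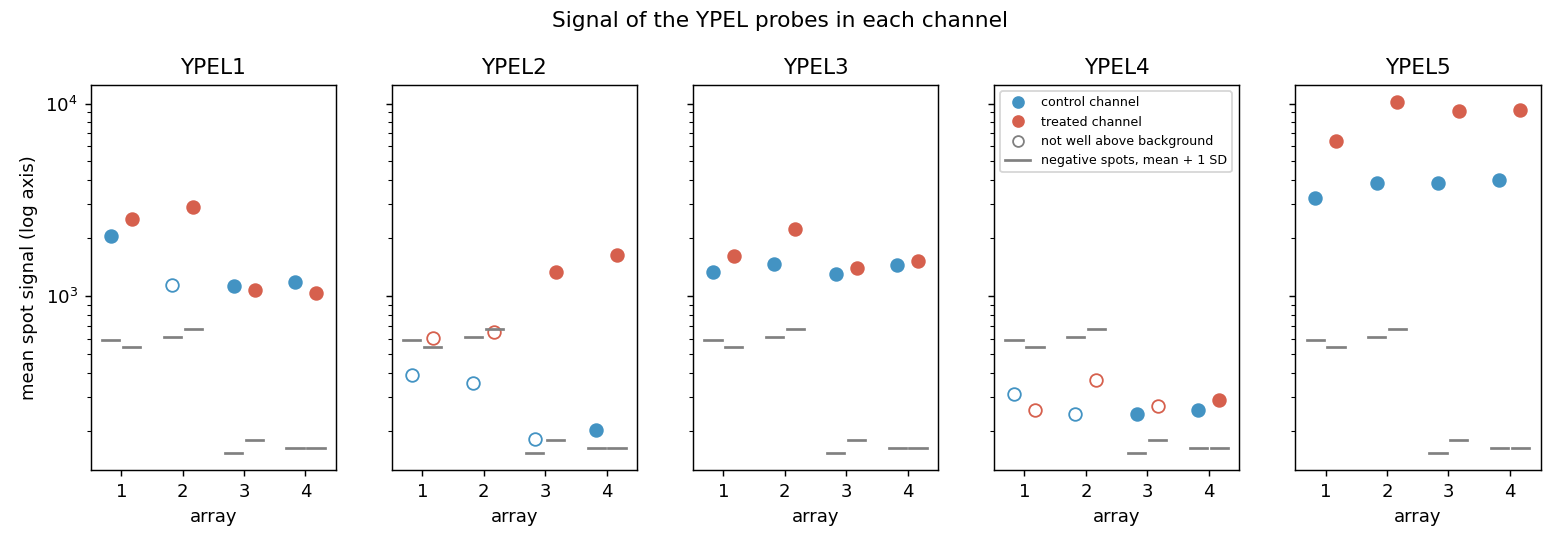
Mean spot signal before background correction (vertical, log axis) of each YPEL probe on arrays 1 to 4 (horizontal axis) in the control and the treated channel, with open points where the spot was not well above background and a grey line at the mean plus 1 SD of the 77 negative spots of that channel. For YPEL5 the treated signals run from 6419 to 10127 and the control signals from 3223 to 4013, with no correction for dye. The treated signal of YPEL2 is marked as well above background only on arrays 3 and 4 (1339 and 1642).

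YPEL3, the growth arrest gene of the family, was measured well and showed hardly any difference. The log2 ratio, treated over control, was 0.26 and 0.09 in the Cy5 orientation and -0.04 and 0.05 in the Cy3 orientation. These values lie on both sides of 0. The mean of the orientations was 0.091 ± 0.13 (SD, n = 4 arrays), with 0.18 in the Cy5 and 0.0048 in the Cy3 orientation. The spot signals ranged from 1404 to 2236 for treated and from 1299 to 1463 for control cells, all well above background.

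YPEL1 had ratios whose sign followed the dye. Its treated to control ratio on the log2 scale was 0.26 on array 1 but -0.28 and -0.21 in the Cy3 orientation. On array 2 the spot was marked as non-uniform by the scanner software and was left out, and its log2 ratio there was 0.84. With that spot left out, the mean of the orientations was 0.0076 ± 0.29 (SD, n = 3 arrays), and it rests on a single array in the Cy5 orientation. The gene was above 0 with the treated RNA in Cy5 and below 0 with it in Cy3, so that no direction is given for it. It was well above background on 4 arrays for treated and on 3 for control cells, at signals from 1042 to 2897 and from 1131 to 2055.

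YPEL4, the last of the near-identical members, was hardly detected. Its log2 ratio was -0.14 and 0.38 on arrays 1 and 2, and -0.07 and 0.17 on arrays 3 and 4, with a mean of the orientations of 0.085 ± 0.24 (SD, n = 4 arrays). The arrays of each orientation disagreed in sign. Its signal lay between 257 and 369 for treated and between 243 and 310 for control cells. It was well above background on 1 array for treated and on 2 arrays for control cells, and in neither channel of arrays 1 and 2. At so low a signal, and with ratios of both signs, no direction is given for the gene.

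**Figure D3:**
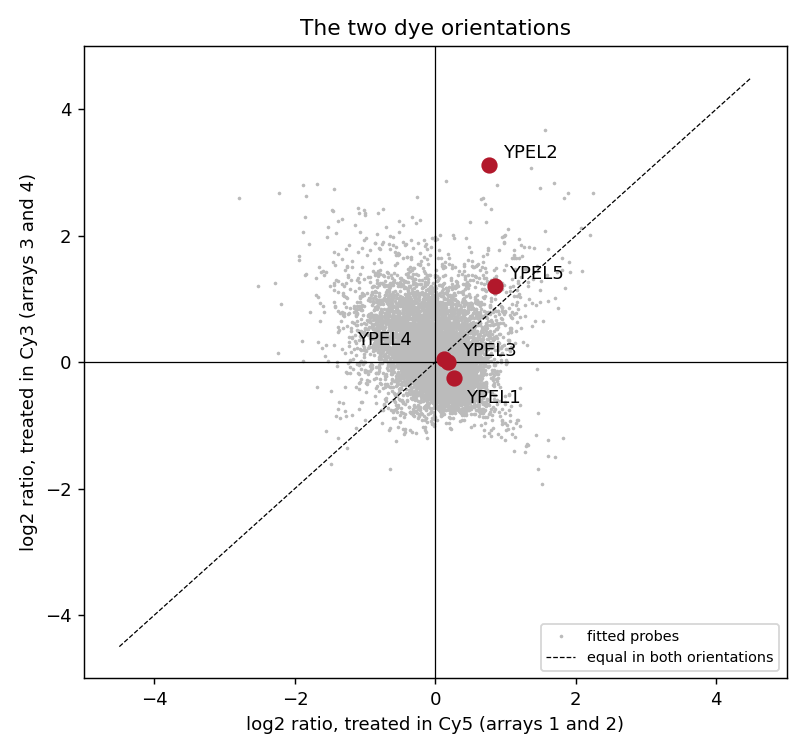
Mean log2 ratio of treated to control cells in the Cy5 orientation (arrays 1 and 2, horizontal axis) and the Cy3 orientation (arrays 3 and 4, vertical axis) for the 8852 fitted probes (grey) and the 5 YPEL probes (red), with a dashed line where both are equal. YPEL5 (0.85 and 1.20) lies near the line, YPEL2 (0.76 and 3.11) far above it, and YPEL1 (0.26 and -0.25) on opposite sides of 0.

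The mean of the orientations kept its sign for YPEL2, YPEL3 and YPEL5 under the alternatives run. In the Cy3 orientation alone, YPEL3 turned from 0.0048 to -0.050 with processed signals. Over the 10 alternatives run for each, the mean log2 ratio of the orientations ranged from 0.98 to 1.13 for YPEL5, from 1.80 to 2.70 for YPEL2 and from 0.049 to 0.19 for YPEL3. The upper end for YPEL2 came from the processed signals of the scanner software and the authors' table made from them. YPEL4 ranged from -0.073 to 0.21 and was below 0 in 3 of 10 alternatives, and YPEL1 ranged from -0.077 to 0.15 and was below 0 in 2 of 9. Within the orientations, the processed signals gave YPEL2 log2 ratios of 1.53 (Cy5) and 3.87 (Cy3), against 0.76 and 3.11 as reported.

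**Figure D4:**
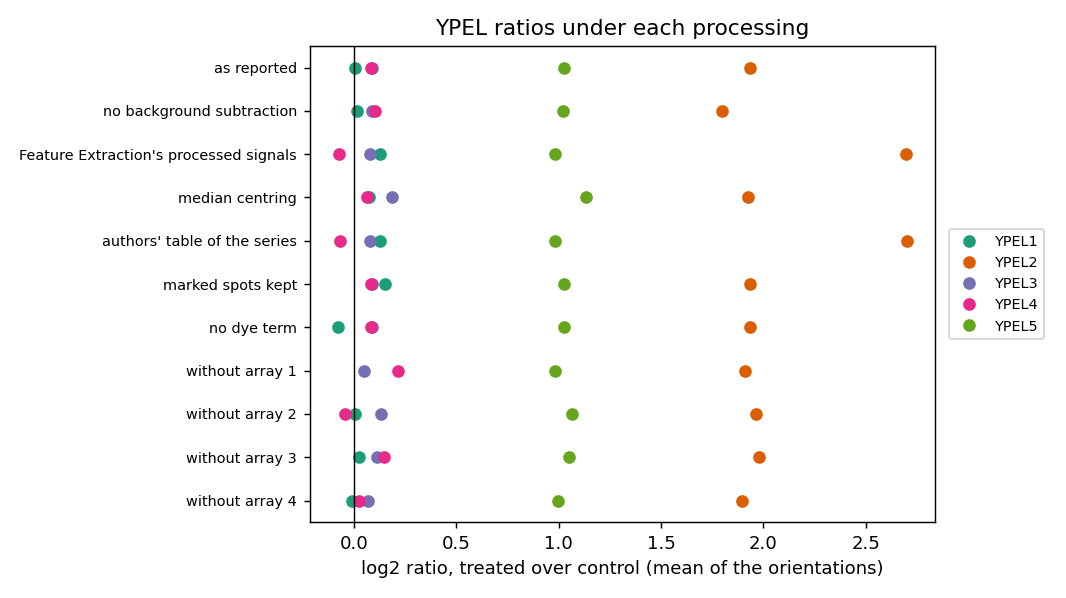
Mean log2 ratio of the orientations, treated over control (horizontal axis), of each YPEL gene as reported and under each alternative processing (vertical axis). YPEL5 stays between 0.98 and 1.13 and YPEL2 between 1.80 and 2.70, while YPEL1 and YPEL4 lie on both sides of 0.

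The other genes of the complex that holds YPEL5 were looked at next. Of 10 genes of the CTLH complex 6 had a probe and were fitted, and 3 of these rose at an adjusted p under 0.05 and 0 fell. In the same fit 23.2% of the 8852 probes rose and 13.1% fell. The median log2 ratio was 0.17 over the 6 genes and 0.012 over all fitted probes. Taken array by array, the median of the 6 genes had an SD of 0.19, larger than 0.17. MAEA (-0.32), RMND5A (-0.25) and MKLN1 (-0.73) had mean log2 ratios below 0 in the Cy5 orientation. Their means were above 0 in the Cy3 orientation, at 0.13, 0.076 and 1.20. RANBP9, RANBP10 and RMND5B had means above 0 in both orientations. No shift of the list as a whole is read from its median. The dye term of this fit removes the difference between orientations, so that its SE and adjusted p reflect the spread within an orientation only.

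RANBP10 and RANBP9, the Ran-binding scaffold proteins of the complex, rose on every array. The log2 ratio of RANBP10 was 0.66 and 0.58 on arrays 1 and 2, and 0.43 and 0.35 on arrays 3 and 4, with a mean of 0.51 (SE 0.064, limma adjusted p = 0.00082). RANBP9 had log2 ratios of 0.56 and 0.42 on arrays 1 and 2, and 0.35 and 0.64 on arrays 3 and 4, with a mean of 0.49 (SE 0.075, limma adjusted p = 0.0019). Background was well exceeded by both genes on every array, and they were 1.41-fold (RANBP9) and 1.42-fold (RANBP10) higher in treated cells. Over the 12 alternatives the log2 ratio ranged from 0.48 to 0.63 for RANBP10 and from 0.42 to 0.57 for RANBP9. Without the dye term neither passed the threshold (limma adjusted p = 0.134 for RANBP10 and 0.135 for RANBP9). MKLN1, which codes for muskelin, passed it with ratios of opposite sign, as its log2 ratio was -0.61 and -0.86 on arrays 1 and 2 but 1.17 and 1.24 on arrays 3 and 4. Its mean was 0.24 ± 1.12 (SD, n = 4 arrays; limma adjusted p = 0.033), and 6 of 12 alternatives did not call it. The RING subunits MAEA (-0.096), RMND5A (-0.085) and RMND5B (0.095) did not pass the test at these log2 ratios. RMND5B also lay above 0 on every array, at log2 ratios of 0.098, 0.071, 0.0094 and 0.20 on arrays 1 to 4. Thus the scaffold genes and RMND5B shared the sign of YPEL5 on all 4 arrays, at smaller ratios. MAEA, RMND5A and MKLN1 had ratios of both signs. A ratio above 0 on all 4 arrays was found for 16.3% of the fitted probes with 4 unmarked spots.

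The Yippee-fold relatives and the cereblon ligase had mean log2 ratios between -0.26 and 0.27, with larger values of opposite sign on single arrays for some of the genes. Of 10 genes 9 had a probe and 7 could be fitted, of which 1 rose, 1 fell and 5 did not pass the test, with a median log2 ratio of -0.074. Among all 8852 fitted probes 23.2% rose and 13.1% fell, with a median log2 ratio of 0.012. MSRB3 was below the filter, and the spots of CUL4A were marked as outliers on all arrays. CRBN, the gene of cereblon itself, had log2 ratios of -0.74 and 0.06 on arrays 1 and 2, and 0.46 and 0.48 on arrays 3 and 4, with a mean of 0.067 (limma adjusted p = 0.70). OIP5, a centromere protein, had log2 ratios of -0.08 on array 2 and 0.64 and 0.61 on arrays 3 and 4, with a mean of 0.27 (n = 3 arrays; limma adjusted p = 0.038), and 5 of 9 alternatives did not call it. MSRB2, a mitochondrial methionine sulfoxide reductase, had log2 ratios of 0.13 and -0.0043 on arrays 1 and 2 and of -0.54 and -0.64 on arrays 3 and 4, with a mean of -0.26 (limma adjusted p = 0.017), and 4 of 12 alternatives did not call it. The remaining genes were DDB1 (0.010), CUL4B (-0.074), RBX1 (-0.13) and MSRB1 (-0.14), given as log2 ratios. As the family was chosen on its ratios, these means are not set against those of YPEL2 and YPEL5.

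To see which genes had a profile like that of a family member, the 4 log2 ratios of each member were set against those of the 4276 named genes with 4 unmarked spots, each of them well above background for treated and control RNA alike. The measure was the root mean square difference over the 4 arrays, in log2 units, and genes are named for likeness only. YPEL1, with its marked spot, was left out. Nearest to YPEL5 was PPM1D, a nuclear protein phosphatase, at 0.050, with log2 ratios of 0.85, 0.79, 1.16 and 1.21 on arrays 1 to 4. It was followed by PIGA, of glycosylphosphatidylinositol anchor synthesis, and the zinc finger gene ZSCAN26, both at 0.12. YPEL2 had no gene as near in this set, which leaves out genes close to background in control cells, as YPEL2 was. The ratios of YPEL2, like those of YPEL4, came in part from spots not well above background, so that the neighbours of both rest on uncertain profiles. The chaperone gene HSPA4L was at 0.31, with log2 ratios from 0.65 to 2.91. The co-chaperone gene DNAJB4 was at 0.45 and FBXO30, an F-box gene, at 0.82. The low-ratio members had close neighbours, namely ST7 (0.030), EPS15 (0.051) and LCP1 (0.055) for YPEL3, and USP10 (0.045), SCRIB (0.068) and ZNF542P (0.091) for YPEL4.

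YPEL2 and YPEL5 were the members with a positive ratio on every array, and their promoters are shown for that reason. The sequences are the 250 bases before the gene start in RefSeq on GRCh38.p14, at chr17:59331405-59331654 on the plus strand for YPEL2 and at chr2:30146757-30147006 on the plus strand for YPEL5. Capitals mark matches, on either strand, to the GC box GGGCGG, the CCAAT box CCAAT and the core TGACG of the cyclic AMP response element (CRE).
YPEL2: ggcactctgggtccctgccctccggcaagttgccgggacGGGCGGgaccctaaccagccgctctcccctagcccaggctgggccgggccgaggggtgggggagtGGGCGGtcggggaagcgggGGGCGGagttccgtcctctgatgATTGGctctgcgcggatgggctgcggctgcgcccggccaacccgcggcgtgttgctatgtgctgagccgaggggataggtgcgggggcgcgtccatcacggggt
YPEL5: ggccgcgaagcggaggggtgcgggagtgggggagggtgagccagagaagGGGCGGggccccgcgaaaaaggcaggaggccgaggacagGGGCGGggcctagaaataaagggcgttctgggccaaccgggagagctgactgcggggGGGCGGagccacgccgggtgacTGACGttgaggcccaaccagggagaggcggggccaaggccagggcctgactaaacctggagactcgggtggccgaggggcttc
Promoters of 4 members (YPEL2 to YPEL5) were found in the table. Both sequences shown hold 3 GC boxes, and at least 1 is found in 42.6% of the 35116 promoters of this length. YPEL2 has a CCAAT box that starts 104 bases before the gene start (32.0% of promoters), and YPEL5 has a TGACG core that starts 83 bases before it (21.2% of promoters). No GGGCGG or CCAAT was found in the promoter of YPEL4, but it has a TGACG core that starts 75 bases before the gene start. The promoter of YPEL3, whose ratio was near 0, holds 3 GC boxes, 1 CCAAT box and 1 CRE core. With promoters of only 4 members, whether the motifs go with the ratios was not tested. The letters TGATGCAA, TATAAA, TGACNNNGC and GAANNTTC were in none of the 4 windows. The GC content was 73.2% for YPEL2, 79.6% for YPEL3, 63.2% for YPEL4 and 70.8% for YPEL5, against a median of 58.0% over all promoters. A match is a description of the sequence only.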

How the data were processed

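RNA of treated and control K562 cells was measured on 4 arrays in 2 colours. The authors quantified the scans with Agilent Feature Extraction and deposited the raw spot intensity and local background per channel. They also deposited processed intensity values, corrected for background and dye, with a log10 ratio (Cy5 over Cy3) and its model error, and a series table of log10 ratios. On arrays 3 and 4 this table has the opposite sign, so that it reads treated over control, and per array at least 14281 of 14297 values matched the array's own ratio to within 0.001.

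From the mean spot intensity, background was corrected with normexp (offset 50), control spots were left out and ratios were normalized by loess (span 0.3). Spots marked as non-uniform or population outliers were left out (1.57% to 8.08% of probes per array). No gene probe was saturated. Probes well above background in 1 channel on at least 2 arrays, with 3 unmarked spots and at least 1 in each dye orientation, were fitted with limma 3.58.1 in R 4.3.3 (treatment and dye terms, Benjamini-Hochberg adjustment over 8852 probes), a step tested on simulated data. Arrays limit the precision by their number of 4. Genes were named by the transcript accession through RefSeq (12002 probes) or by the name in the files. Members and lists were chosen with earlier results of these data known. Some marker genes are not reported here. The genes named are the members, the genes of the lists, and the 3 nearest profiles of each member. The alternatives were no background subtraction, processed signals, the authors' table, median centring, marked spots kept, no dye term, other filters on dim probes and each array left out in turn.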

Additional observations from a re-analysis of the deposited data

How the results depend on the processing

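The mean log2 ratio of YPEL2 moved from 1.94 to 2.70 with processed signals (1.53 in the Cy5 and 3.87 in the Cy3 orientation), a shift under its SD over the arrays only because that SD holds the difference between the orientations. YPEL3 and YPEL5 moved by less than their SD. In the Cy3 orientation YPEL3 was near 0 and changed sign in 4 alternatives, down to -0.050. The dye term mattered most for the other counts. Without it 50 probes rose and 4 fell, 0 CTLH genes rose, and of the Yippee-fold and cereblon ligase list 0 rose and 0 fell, because that fit counts the difference between the orientations as error. Median centring gave 589 probes lower, and 0 higher and 0 lower genes of the latter list. In that list 0 genes rose with processed signals, with the authors' table and with marked spots kept, and its median log2 ratio was -0.13, -0.13 and -0.018 in these settings; the cause was not tested. With the stricter filter, which asks for a clear signal in both channels of every array, 1274 probes rose, as fewer (5587) were tested. Leaving out each array in turn gave 827 to 2629 probes higher and 217 to 1513 lower, both lowest without array 4 and low without array 3 too (1081 and 380). For the Yippee-fold and cereblon ligase list it gave 0 to 2 genes higher, 0 to 1 lower and a median of -0.14 (without array 2) to -0.0076 (without array 4). For the CTLH list it gave 2 to 3 genes higher, with 2 without array 1, 3 or 4, a median of 0.13 to 0.20, and 0 lower. MKLN1, OIP5 and MSRB2 lost their call in 6, 5 and 4 settings and kept their direction. In the Cy5 orientation YPEL1 was at 0.72 with processed signals and 0.71 with the authors' table, and YPEL4 at 0.38 without array 1 and -0.14 without array 2. YPEL2 and YPEL4 were not well above background in either channel of arrays 1 and 2. On array 3 the same held for YPEL2 in the control channel and for YPEL4 in the treated channel.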
